A study of Mus musculus with 48 samples.

Results

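The genes described here handle lipid and cholesterol in microglia. They are 10 genes of the 48526 in the table, chosen by name for their roles, with earlier results of these data known: Lpl and Apoe, which work on and in lipoproteins; Lipa, the lysosomal lipase; Abca1 and Abcg1, the cholesterol exporters; Plin2 and Soat1, which serve lipid storage; Mylip, a regulator of lipoprotein receptors; and Nr1h2 and Nr1h3, which encode the liver X receptors (LXR) beta and alpha. All 10 had reads. A filter on low values asked for at least 1 RPKM in 6 or more libraries; 9 of the genes passed it and Nr1h3 did not. The RNA came from hippocampal microglia of juvenile C57BL/6 mice, which had been isolated by FACS, a cell sorting method, through their Cx3cr1, the fractalkine receptor. Irradiated mice (IR) had received 1 whole brain dose of 8 Gy on postnatal day 21, and sham mice (SH) served as controls. Both were killed 2 h, 6 h, 1 day or 1 week later, with 6 IR and 6 SH animals at each time and 1 library per animal, so 48 libraries. The labels name no transgene and no other agent, and each time had SH animals of its own.

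Microglia take up cholesterol as lipoprotein particles, cell debris and myelin. Lysosomal acid lipase, the product of Lipa, frees the cholesterol from its esters. The free sterol can be esterified again by the enzyme encoded by Soat1 and kept in droplets coated by perilipin 2 (Plin2), or exported through Abca1 and Abcg1 to acceptor particles built on apolipoprotein E (Apoe). Sterol derivatives activate LXR, whose known targets in macrophages include Abca1, Abcg1, Apoe, Lpl and Mylip. Lpl and Apoe are also known as markers of the state that microglia take on around plaques and damaged myelin.

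Levels are reads per kilobase of gene span and per 1000000 reads (RPKM). The span includes introns, so a level is compared between libraries and not between genes. A library held 175382 to 3856777 reads on genes, and 3 libraries had under 1000000: SH 1 day library 6, IR 2 h library 2 and SH 6 h library 4. Changes are IR minus SH on the log2(RPKM + 1) scale with the standard error after ±, which understates the change of genes near 1 RPKM such as Plin2 and Nr1h2. Adjusted p values are those of limma over 10132 genes, with a threshold of 0.05. Of 12 microglial markers, 11 had 1 row each in the table; they summed to between 24288 and 50203 reads per 1000000 (RPM) in every library and none was at 0. On the first principal component, with 15.4% of the variance, SH 6 h libraries 1 to 4 lay between -43.06 and -36.01. This was within the range of the 2 h libraries. SH 6 h libraries 5 and 6 lay at 11.34 and 15.99, and the IR 6 h libraries at 12.34 to 21.15. The untreated libraries of later times lay there too, with SH 1 day at 13.87 to 22.48 and SH 1 week at 15.2 to 22.61. The members at 6 h are therefore given against all SH 6 h libraries, against SH 6 h libraries 1 to 4 and against SH 6 h libraries 5 and 6. Fewer cells of a type and less RNA per cell cannot be told apart in such bulk samples.

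Between 2 and 5 of the 9 tested lipid genes passed the test at each time. At 2 h, Abcg1 and Lipa fell, and no member rose. At 6 h, Apoe, Abcg1 and Plin2 rose and Abca1 fell, and none of these passed against SH libraries 5 and 6 alone. At 1 day, Lpl, Abca1, Abcg1, Plin2 and Lipa rose, and no member fell. At 1 week, Abcg1, Mylip and Lipa fell, and no member rose. Nr1h2 and Soat1 passed the test at no time, and Nr1h3, which the filter left out, did not enter it.

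Set against the background, 2 of 9 members passed at 2 h, where 8.62% of all tested genes did (4.60% higher, 4.02% lower), and 4 of 9 at 6 h, where 20.9% did (12.9% higher, 8.00% lower). At 1 day 5 of 9 passed against a background of 4.29% (2.90% higher, 1.39% lower). At 1 week 3 of 9 passed against 3.54% (2.03% higher, 1.51% lower). The median change over the 9 members was -0.11 at 2 h, 0.19 at 6 h, 0.60 at 1 day and -0.28 at 1 week. Over all tested genes it was -0.01, 0.08, 0.00 and 0.05 at the same times. After removal of the trend of values on GC content and gene span, the split of all called genes at 6 h was 754 higher and 720 lower, in place of 1309 and 811, and at 1 week 163 and 199, in place of 206 and 153.

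**Figure D1:**
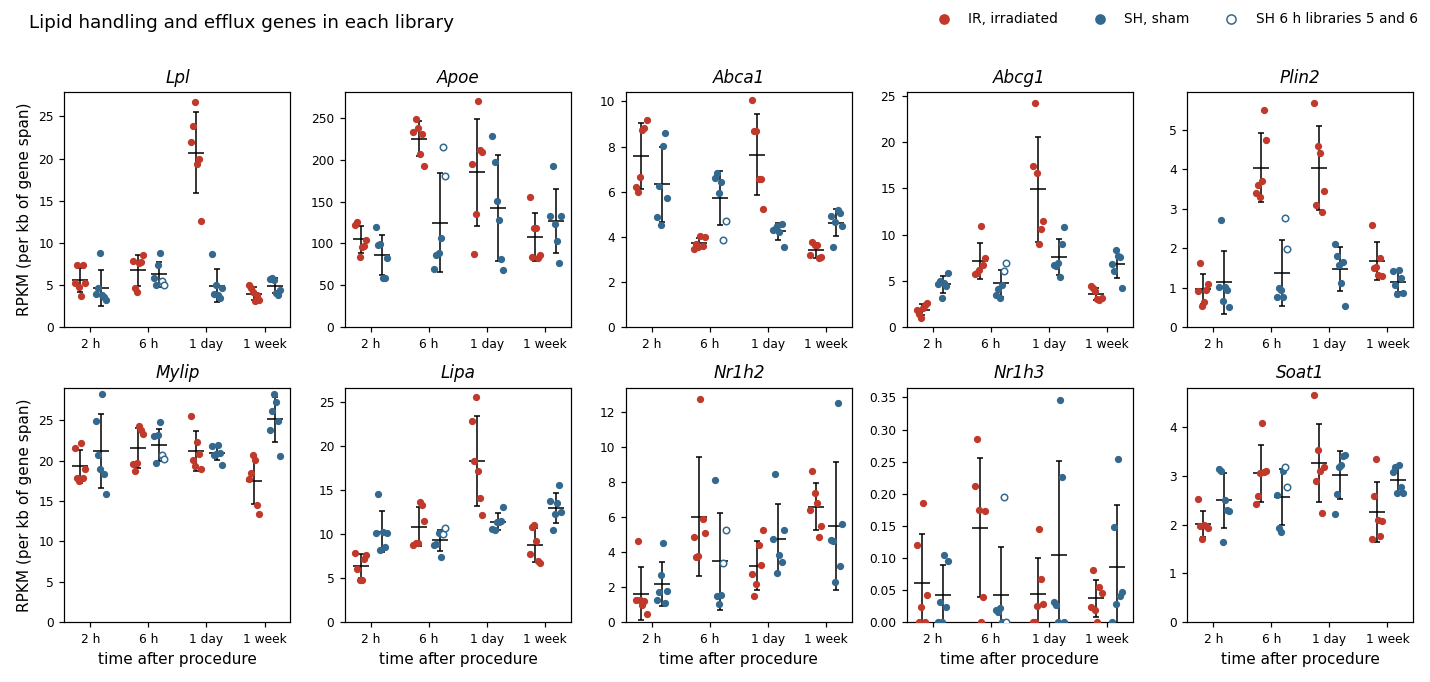
RPKM (linear axis from 0) of each lipid gene in every library, with IR libraries left of SH libraries at each time, open points for SH 6 h libraries 5 and 6, and bars for the mean and SD; n = 6 libraries per group. All 6 IR libraries of 1 day lie above all SH libraries of that time for Lpl, Abca1 and Plin2, and all 6 IR libraries of 2 h lie below all SH libraries for Abcg1 and Lipa. Of all tested genes, 2.29% rose with no overlap at 1 day and 2.03% fell with no overlap at 2 h.

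Lpl (ENSMUSG00000015568, chr8:68880491-68907448, plus strand, GRCm38) encodes lipoprotein lipase, which releases fatty acids from the triglycerides of lipoproteins. It had the largest log2 change of the 9 tested members at any of the 4 times. At 1 day its level ran from 12.5 to 26.7 RPKM with a median of 20.9 in IR libraries, and from 3.40 to 8.70 RPKM with a median of 4.30 in SH libraries. The lowest IR library was above the highest SH library, as in 2.29% of all tested genes at 1 day. The means were 20.7 ± 4.83 RPKM in IR and 4.92 ± 1.94 RPKM in SH libraries (SD, n = 6 each), a 4.21-fold difference and a log2 change of 1.89 ± 0.20 (adjusted p = 1.22e-09). These values rest on 637 to 1517 reads in IR libraries and 22 to 774 in SH libraries, and the log2 change stayed between 1.82 and 2.05 and past the threshold when any 1 of the 12 libraries was left out.

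At the other times the Lpl levels of the groups overlapped. At 2 h they ran from 3.71 to 7.35 RPKM in IR and from 3.17 to 8.83 RPKM in SH libraries, and at 6 h from 4.19 to 8.53 RPKM in IR and from 4.95 to 8.77 RPKM in SH libraries. At 1 week IR libraries had 3.14 to 4.98 RPKM and SH libraries 3.85 to 5.81 RPKM. The log2 changes at these times were 0.25, 0.08 and -0.24, each ± 0.20, with adjusted p values of 0.534, 0.808 and 0.547. The change at 1 day differed from that at 6 h by 1.81 ± 0.28 (adjusted p = 9.01e-05) and that at 1 week from that at 1 day by -2.14 ± 0.28 (adjusted p = 2.43e-06).

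Markers of blood monocytes and neutrophils had a higher sum at 1 day as well, with a median of 47.5 RPM in IR and 19.0 RPM in SH libraries. The sums ran from 25.1 to 91.9 RPM in IR and from 12.9 to 51.3 RPM in SH libraries, so the groups overlapped. Of the 8 markers 2 passed the filter and 1, Plac8, rose, by 0.79 ± 0.21 (adjusted p = 0.0156). Plac8 made up most of the sum, with 21.4 to 79.3 RPM in IR and 6.95 to 45.6 RPM in SH libraries. Ccr2, the other tested marker, was not called (-0.04 ± 0.17, adjusted p = 0.961), with 3.65 to 10.4 RPM in IR and 4.06 to 10.6 RPM in SH libraries. Ly6c2 had 0 to 6.94 RPM in IR libraries and 0 in SH libraries. S100a8, S100a9, Ly6g, Mmp8 and Retnlg were at 0 in all 12 libraries of that time. The microglial markers summed to 24288 to 35582 RPM in IR and 35585 to 46034 in SH libraries, and 5 of the 11 fell. Whether either list had a part in the rises of 1 day was not tested.

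Apoe (ENSMUSG00000002985, chr7:19696109-19699188, minus strand) encodes apolipoprotein E, the main lipid-carrying protein that glia secrete. It had the highest reading of the members, between 59.0 and 270.0 RPKM in every library, and also the shortest span. At 6 h it ran from 193 to 248 RPKM with a median of 231 in IR libraries, and from 69.1 to 215 RPKM with a median of 97.5 in SH libraries. Of the IR libraries 4 were above the highest SH library. The log2 change was 0.97 ± 0.27 (adjusted p = 0.00753), and the means differed 1.81-fold, with 225 ± 21.0 RPKM in IR and 124 ± 59.1 RPKM in SH libraries. SH libraries 5 and 6 had 181 and 215 RPKM, and SH libraries 1 to 4 had 69.1 to 106 RPKM. After removal of the trend on GC content and gene span the change was 0.42 and no longer called (adjusted p = 0.19).

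At 1 day Apoe ran from 87.3 to 270.0 RPKM with a median of 202 in IR libraries and from 68.5 to 229 RPKM with a median of 139 in SH libraries. The groups overlapped and the change was not called, at 0.42 ± 0.27 (adjusted p = 0.497). At 2 h the change was 0.31 ± 0.27 (adjusted p = 0.592) and at 1 week -0.22 ± 0.27 (adjusted p = 0.733). No difference between adjacent times passed the test for Apoe. Lpl and Apoe, named together as markers of plaque-associated microglia, thus had their calls at different times, Lpl at 1 day and Apoe at 6 h; whether the 2 genes differ from each other was not tested.

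Apoe is also abundant in astrocytes, and the summed astrocyte markers had a higher median in the same comparison, 57.1 RPM in IR and 26.1 RPM in SH libraries. At 6 h the 10 astrocyte markers summed to 37.6 to 80.5 RPM in IR and 17.9 to 44.7 in SH libraries, with 40.8 and 44.7 in SH libraries 5 and 6 and 17.9 to 27.3 in SH libraries 1 to 4. Aldoc, the one marker that passed the filter, rose by 0.70 ± 0.23 (adjusted p = 0.0266). Slc1a2 had 22.6 to 45.4 RPM in IR and 4.63 to 29.7 in SH libraries, and Gfap had 0 to 5.85 in IR and 0 to 1.87 in SH libraries. For S100b, Ndrg2, Aldh1l1 and Fgfr3, too, the highest IR library was above the highest SH library. Aqp4 had 0 to 3.42 RPM in IR and 0 to 3.28 in SH libraries, and Gja1 1.64 to 9.76 in IR and 1.37 to 8.84 in SH libraries. Gjb6 had 0 to 0.964 RPM in IR and 0 to 1.86 in SH libraries. Each of these markers overlapped between the groups. The part of astrocyte RNA in the Apoe difference was not tested.

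Abca1 and Abcg1 both export cholesterol and are both LXR targets, but their calls against all SH libraries had opposite signs at 6 h. Neither call held against SH libraries 5 and 6 alone (Abca1 -0.16, adjusted p = 0.919, and Abcg1 0.10, adjusted p = 0.975). Both were also lost after removal of the GC and span trend (adjusted p = 0.0704 and 0.129). The 300 bases around the start of Abca1, from 250 before to 50 after it in the RefSeq table of GRCm38.p6, are shown because Abca1 moved in opposite directions at 6 h and 1 day. The window is chr4:53159846-53160145 on the minus strand. Capitals mark 2 matches: CACGTG, the E-box letters, at -147 to -142, and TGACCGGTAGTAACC at -67 to -53, which on the other strand matches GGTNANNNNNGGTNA, a loose form of the paired LXR half-sites.
Abca1: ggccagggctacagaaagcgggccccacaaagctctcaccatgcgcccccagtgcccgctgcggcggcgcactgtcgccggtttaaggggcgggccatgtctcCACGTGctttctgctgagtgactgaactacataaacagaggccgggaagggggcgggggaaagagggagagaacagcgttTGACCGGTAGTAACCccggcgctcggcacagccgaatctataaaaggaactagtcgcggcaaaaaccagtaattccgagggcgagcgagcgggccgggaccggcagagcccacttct
Both strands were searched. The loose paired form occurs in 0.718% of the 32851 promoters of the same length and CACGTG in 7.15%. The strict form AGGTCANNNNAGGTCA occurs in 0.0152% of them and in no member. RefSeq promoters were at hand for 8 of the 10 members; none for Lpl and Abcg1. These are letter matches in a short window and say nothing of binding.

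Abca1 (ENSMUSG00000015243, chr4:53030787-53159895, minus strand) encodes the transporter that loads cholesterol and phospholipid onto lipid-poor apolipoproteins. At 6 h it ran from 3.47 to 4.03 RPKM with a median of 3.64 in IR libraries, and from 3.85 to 6.81 RPKM with a median of 6.19 in SH libraries. Of the IR libraries 4 were below the lowest SH library, and the log2 change was -0.49 ± 0.13 (adjusted p = 0.00611; -0.33 and 0.0704 after removal of the GC and span trend). At 1 day it ran from 5.24 to 10.1 RPKM with a median of 7.64 in IR libraries, and from 3.53 to 4.58 RPKM with a median of 4.32 in SH libraries. All 6 IR libraries were above all SH libraries, as in 2.29% of all tested genes at 1 day. The mean of 7.64 ± 1.80 RPKM in IR was 1.80 times the 4.24 ± 0.373 RPKM in SH libraries (log2 change 0.70 ± 0.13, adjusted p = 0.000361).

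At 2 h Abca1 ran from 5.99 to 9.17 RPKM in IR and from 4.52 to 8.62 RPKM in SH libraries, with a change of 0.24 ± 0.13 (adjusted p = 0.318). At 1 week it ran from 3.06 to 3.79 RPKM in IR and from 3.53 to 5.19 RPKM in SH libraries, a change of -0.35 ± 0.13 that was not called (adjusted p = 0.134) although 3 IR libraries were below the lowest SH library. All 3 differences between adjacent times passed: -0.73 ± 0.19 from 2 h to 6 h (adjusted p = 0.0101), 1.19 ± 0.19 from 6 h to 1 day (adjusted p = 0.000123) and -1.05 ± 0.19 from 1 day to 1 week (adjusted p = 0.000386). Abca1 was the only one of the 9 tested members with all 3. With SH 6 h libraries 5 and 6 alone, the differences that involve 6 h lost their calls. They were then -0.40 from 2 h to 6 h (adjusted p = 0.687) and 0.86 from 6 h to 1 day (adjusted p = 0.0956).

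Abcg1 (ENSMUSG00000024030, chr17:31057698-31115777, plus strand) encodes the transporter that passes cholesterol on to lipidated particles. It was the only one of the 9 tested members called at all 4 times. At 2 h it ran from 1.01 to 2.63 RPKM with a median of 1.95 in IR libraries, and from 3.10 to 5.87 RPKM with a median of 4.68 in SH libraries. All 6 IR libraries were below all SH libraries; the IR mean was 0.408 times the SH mean and the log2 change was -0.97 ± 0.19 (adjusted p = 0.00032). Falls with no overlap at 2 h were seen in 2.03% of tested genes, and among the members in Abcg1 and Lipa. The mitochondrial share of reads at 2 h was 6.14% to 14.6% in IR and 3.05% to 9.34% in SH libraries, and its part in these falls was not tested.

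At 6 h Abcg1 ran from 5.73 to 10.9 RPKM with a median of 6.44 in IR libraries, and from 3.16 to 6.94 RPKM with a median of 4.36 in SH libraries, a change of 0.52 ± 0.19 close to the threshold (adjusted p = 0.0475). At 1 day it ran from 8.96 to 24.2 RPKM with a median of 14.1 in IR libraries, and from 5.43 to 10.8 RPKM with a median of 6.81 in SH libraries. Of the IR libraries 4 were above the highest SH library, and the change was 0.85 ± 0.19 (adjusted p = 0.00316). At 1 week the order was the reverse: 2.94 to 4.41 RPKM with a median of 3.53 in IR libraries, and 4.22 to 8.29 RPKM with a median of 7.22 in SH libraries. Here 5 IR libraries were below the lowest SH library, and the change was -0.74 ± 0.19 (adjusted p = 0.022).

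The effect on Abcg1 moved by 1.49 ± 0.27 from 2 h to 6 h (adjusted p = 0.000271) and by -1.59 ± 0.27 from 1 day to 1 week (adjusted p = 0.000208). From 6 h to 1 day the difference of 0.33 ± 0.27 was not called (adjusted p = 0.553). The call of Abcg1 at 6 h was lost without SH library 1, 2, 3 or 4 and without IR library 3, 4, 5 or 6, where the change was 0.40 to 0.55 (adjusted p from 0.0522 to 0.148), and it was also lost with a pseudocount of 0.1, with no filter, with median-of-ratios scaling, in the 12 libraries alone, without the shallow library and after removal of the GC and span trend (adjusted p from 0.0521 to 0.129). At 1 week it was lost without SH library 3, 4 or 5 and without IR library 4, 5 or 6 (adjusted p up to 0.0654), and in a fit of the 12 libraries of 1 day alone the rise at 1 day had an adjusted p of 0.0938.

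Lipa (ENSMUSG00000024781, chr19:34492318-34527474, minus strand) encodes lysosomal acid lipase. Its calls at 2 h, 1 day and 1 week had the same signs as those of Abcg1. At 2 h it ran from 4.78 to 7.84 RPKM with a median of 6.66 in IR libraries, and from 8.17 to 14.6 RPKM with a median of 10.1 in SH libraries. The groups did not overlap, and the change was -0.61 ± 0.15 (adjusted p = 0.00515). At 1 day it ran from 12.2 to 25.6 RPKM with a median of 17.7 in IR libraries, and from 10.4 to 13.1 RPKM with a median of 11.4 in SH libraries, with 5 IR libraries above the highest SH library and a change of 0.60 ± 0.15 (adjusted p = 0.00952). At 1 week it ran from 6.76 to 11.1 RPKM with a median of 8.5 in IR libraries, and from 10.4 to 15.5 RPKM with a median of 13 in SH libraries, with 4 IR libraries below the lowest SH library and a change of -0.54 ± 0.15 (adjusted p = 0.036). The mitochondrial share of reads at 1 week was 2.56% to 4.38% in IR and 1.42% to 2.36% in SH libraries, with no overlap, and its part in the falls of Abcg1, Mylip and Lipa at that time was not tested.

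At 6 h Lipa had 8.81 to 13.6 RPKM in IR and 7.46 to 10.8 RPKM in SH libraries, and the change of 0.19 ± 0.15 was not called (adjusted p = 0.415). Its effect differed between 2 h and 6 h by 0.80 ± 0.21 (adjusted p = 0.0138) and between 1 day and 1 week by -1.14 ± 0.21 (adjusted p = 0.0007). In fits of the 12 libraries of 1 time alone, Lipa had adjusted p values of 0.0525 at 2 h, 0.0918 at 1 day and 0.0643 at 1 week, all above the threshold. Its call was also lost at 1 day without IR library 3 (adjusted p = 0.0541), and at 1 week without SH library 1, 3, 4 or 5 or IR library 1, 4, 5 or 6 (adjusted p up to 0.113) and with no filter on low values (adjusted p = 0.0724).

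At 1 day the IR libraries 1 to 3 had the higher levels of several members. Abcg1 was at 16.6 to 24.2 RPKM in IR libraries 1 to 3 and at 8.96 to 11.5 RPKM in IR libraries 4 to 6, and Abca1 at 8.70 to 10.1 RPKM in the first set and 5.24 to 6.58 RPKM in the second. Lpl and Lipa had the same order, whereas Apoe had the opposite one, with 87.3 to 195 RPKM in IR libraries 1 to 3 and 209 to 270.0 RPKM in IR libraries 4 to 6. The labels name no batch, and this split was seen in the data and not tested.

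Plin2 and Soat1 stand for storage. The promoter of Plin2 is shown because Plin2 was the member that rose with no overlap of the groups at both 6 h and 1 day, and that of Lipa because its calls shared the signs of those of Abcg1, for which no promoter was at hand. Capitals in Plin2 mark TGACCT at -218 to -213, which is the single half-site AGGTCA on the other strand, and CACGTG at -4 to 2; Lipa had neither, nor the paired form. The windows are chr4:86670010-86670309 for Plin2 and chr19:34527425-34527724 for Lipa, both on the minus strand of GRCm38.p6 from RefSeq.
Plin2: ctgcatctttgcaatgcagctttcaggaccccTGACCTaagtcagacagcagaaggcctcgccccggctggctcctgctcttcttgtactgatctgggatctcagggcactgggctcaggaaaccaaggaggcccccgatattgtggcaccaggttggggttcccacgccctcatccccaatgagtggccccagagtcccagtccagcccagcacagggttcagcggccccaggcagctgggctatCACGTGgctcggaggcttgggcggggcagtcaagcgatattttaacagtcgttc
Lipa: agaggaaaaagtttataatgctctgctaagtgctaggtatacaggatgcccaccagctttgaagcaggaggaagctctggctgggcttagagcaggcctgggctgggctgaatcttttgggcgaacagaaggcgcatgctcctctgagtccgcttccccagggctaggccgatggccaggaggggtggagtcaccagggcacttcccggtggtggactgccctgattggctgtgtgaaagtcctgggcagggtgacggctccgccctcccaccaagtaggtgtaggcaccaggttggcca
The half-site AGGTCA occurs in 16.3% of all promoters of this length, on either strand.

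Plin2 (ENSMUSG00000028494, chr4:86648386-86670060, minus strand) encodes perilipin 2, a coat protein of lipid droplets. At 6 h it ran from 3.30 to 5.50 RPKM with a median of 3.66 in IR libraries, and from 0.757 to 2.77 RPKM with a median of 0.965 in SH libraries. At 1 day it ran from 2.91 to 5.68 RPKM with a median of 3.94 in IR libraries, and from 0.526 to 2.11 RPKM with a median of 1.62 in SH libraries. At both times every IR library was above every SH library. Rises with no overlap were seen in 4.96% of tested genes at 6 h and in 2.29% at 1 day. The means were 4.04 ± 0.880 RPKM in IR and 1.37 ± 0.826 RPKM in SH libraries at 6 h, a 2.95-fold difference (log2 change 1.14 ± 0.19, adjusted p = 1.89e-05). At 1 day they were 4.03 ± 1.07 RPKM in IR and 1.47 ± 0.563 RPKM in SH libraries, a 2.74-fold difference (log2 change 1.04 ± 0.19, adjusted p = 0.000196).

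At 2 h Plin2 had 0.540 to 1.63 RPKM in IR and 0.497 to 2.72 RPKM in SH libraries, and no change was called (-0.08 ± 0.19, adjusted p = 0.88). At 1 week it had 1.29 to 2.59 RPKM in IR and 0.830 to 1.44 RPKM in SH libraries. There 4 IR libraries were above the highest SH library, but the change of 0.30 ± 0.19 was not called (adjusted p = 0.412). The effect at 6 h differed from that at 2 h by 1.22 ± 0.27 (adjusted p = 0.00279), and those at 1 day and 6 h differed by -0.10 ± 0.27 (adjusted p = 0.892). The decline from 1 day to 1 week, -0.73 ± 0.27, did not pass (adjusted p = 0.0988). Plin2 rested on few reads, 2 to 236 per library.

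Soat1 (ENSMUSG00000026600, chr1:156424525-156474331, minus strand) encodes the enzyme that makes cholesterol esters for the droplet. It was called at no time, except at 6 h once the GC and span trend was removed (0.37, adjusted p = 0.0416). Its log2 changes were -0.20 ± 0.13 at 2 h, 0.19 ± 0.13 at 6 h, 0.08 ± 0.13 at 1 day and -0.28 ± 0.13 at 1 week, with adjusted p values of 0.402, 0.317, 0.845 and 0.209. At 1 day it ran from 2.23 to 4.65 RPKM in IR and from 2.21 to 3.43 RPKM in SH libraries, so the droplet coat gene Plin2 was called there and the esterifying enzyme was not. At 1 week 5 of the 6 IR libraries of Soat1 were below the lowest SH library, at 2.64 RPKM, and the sixth, at 3.34 RPKM, was above the highest.

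Mylip (ENSMUSG00000038175, chr13:45389742-45412019, plus strand) encodes an E3 ubiquitin ligase that marks lipoprotein receptors for degradation. Its medians were 18.4, 21.5 and 20.4 RPKM in IR and 19.8, 21.9 and 20.8 RPKM in SH libraries at 2 h, 6 h and 1 day, and no change was called (-0.11, -0.03 and 0.01, each ± 0.11, with adjusted p values of 0.671, 0.902 and 0.988). At 1 week it ran from 13.4 to 20.6 RPKM with a median of 18.1 in IR libraries, and from 20.5 to 28.3 RPKM with a median of 25.5 in SH libraries. Of the IR libraries 5 were below the lowest SH library, and the IR mean was 0.696 times the SH mean (log2 change -0.51 ± 0.11, adjusted p = 0.00537). The effect at 1 week differed from that at 1 day by -0.52 ± 0.16 (adjusted p = 0.0402), a call lost with no filter on low values (adjusted p = 0.0783).

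The 2 LXR genes were read at low depth. Nr1h2 (ENSMUSG00000060601, chr7:44549616-44553951, minus strand), LXR beta, had 4 to 160 reads per library. At 6 h it ran from 3.71 to 12.8 RPKM with a median of 5.0 in IR libraries, and from 1.07 to 8.16 RPKM with a median of 2.48 in SH libraries. This change of 0.75 ± 0.33 was not called (adjusted p = 0.101); without SH library 1 it was (1.00, adjusted p = 0.0297). The changes at the other times were -0.34 at 2 h, -0.45 at 1 day and 0.36 at 1 week, each ± 0.33, with adjusted p values of 0.644, 0.582 and 0.62. The levels at these times overlapped between the groups.

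Nr1h3 (ENSMUSG00000002108, chr2:91184061-91202834, minus strand), LXR alpha, had 149 reads in the 48 libraries together and 0 to 16 in a single library, with 0 in 13 libraries. At 6 h its median was 0.173 RPKM in IR and 0.0175 RPKM in SH libraries. Two-sided exact permutation tests of 6 against 6 libraries gave p = 0.587 at 2 h, 0.0996 at 6 h, 0.374 at 1 day and 0.310 at 1 week. No difference in Nr1h3 was detected with these reads. It also shares 6873 bases on its own strand with Gm13783, which had 10 reads in all.

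**Figure D2:**
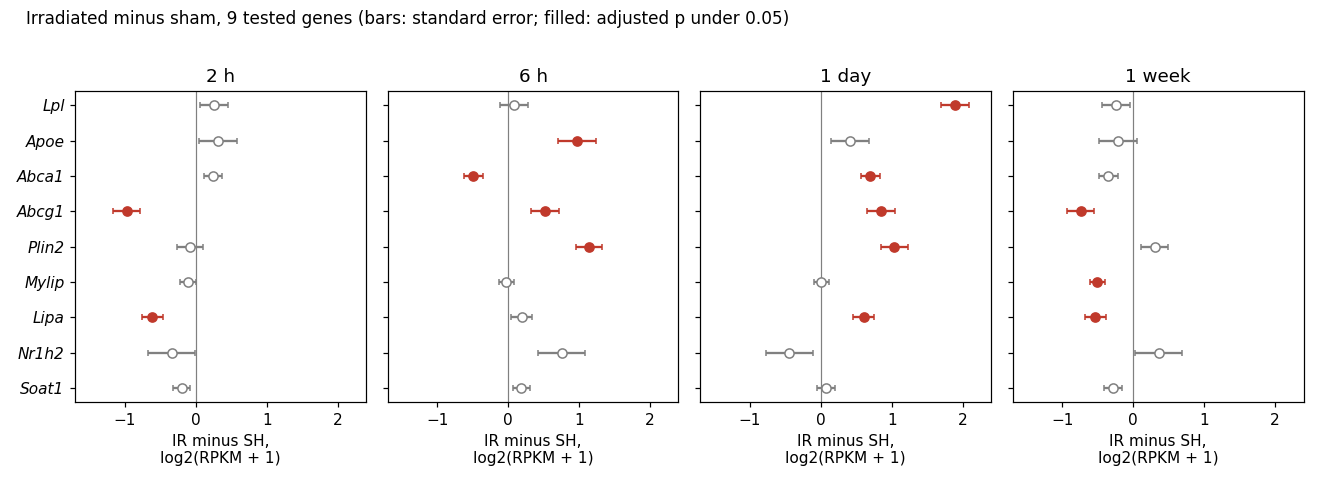
Log2 change (IR minus SH, log2(RPKM + 1) scale, horizontal axis) of each tested lipid gene in 1 panel per time, with the standard error as bars and filled points for adjusted p under 0.05. Abcg1 and Lipa lie below 0 at 2 h and at 1 week and above 0 at 1 day, and Lpl stands at 1.89 at 1 day.

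Of the 27 tests of adjacent times over the 9 members, 11 passed. From 2 h to 6 h, Abcg1, Plin2 and Lipa moved up and Abca1 down, where 9.28% of all tested genes passed. From 6 h to 1 day, Lpl and Abca1 moved up, with 4.38% of all genes passing. From 1 day to 1 week, Lpl, Abca1, Abcg1, Mylip and Lipa moved down and none up, with 5.43% of all genes passing. Adjacent differences share the libraries of the time between them, so the calls of a gene are not independent.

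**Figure D3:**
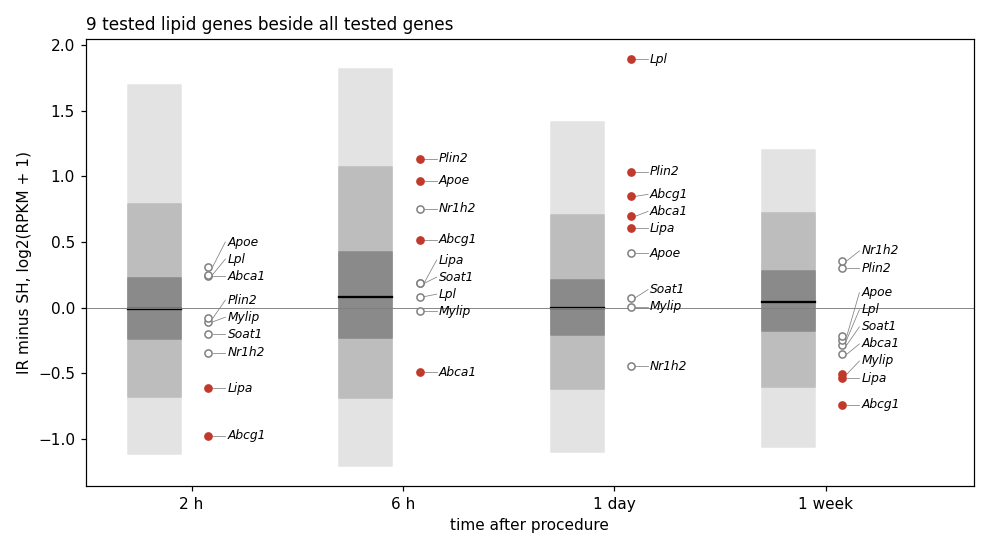
Log2 change (IR minus SH, log2(RPKM + 1) scale) of the 9 tested lipid genes as points, filled where called, beside all 10132 tested genes as grey bands from the 1st to the 99th, 5th to 95th and 25th to 75th percentile, with a line at the median. At 1 day the 5 called lipid genes have changes from 0.60 to 1.89. Lipa (0.604) and Abca1 (0.697) lie below the 95th percentile of all genes, 0.705. Abcg1 (0.848) and Plin2 (1.04) lie between it and the 99th, 1.41, and Lpl lies above the 99th.

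The calls at 6 h depended on which SH libraries were used. Against SH libraries 5 and 6 alone none of the 9 members was called, where 2.09% of all tested genes were; against SH libraries 1 to 4 alone 5 were, where 30.2% of all tested genes were. Apoe changed by 0.18 ± 0.35 against libraries 5 and 6 (adjusted p = 0.964) and by 1.36 ± 0.27 against libraries 1 to 4 (adjusted p = 0.000162). Abca1 changed by -0.16 ± 0.18 against the pair (adjusted p = 0.919) and by -0.66 ± 0.14 against the 4 (adjusted p = 0.000284). It had 3.47 to 4.03 RPKM in IR libraries, 3.85 and 4.70 RPKM in SH libraries 5 and 6, and 5.95 to 6.81 RPKM in SH libraries 1 to 4.

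Abcg1 had 5.73 to 10.9 RPKM in IR libraries, 6.02 and 6.94 RPKM in SH libraries 5 and 6, and 3.16 to 4.56 RPKM in SH libraries 1 to 4. Its change was 0.10 ± 0.26 against the pair (adjusted p = 0.975) and 0.73 ± 0.21 against the 4 (adjusted p = 0.00568). Plin2 was the exception in its values: IR libraries had 3.30 to 5.50 RPKM, above SH libraries 5 and 6 at 1.99 and 2.77 RPKM and above SH libraries 1 to 4 at 0.757 to 0.999 RPKM. Its change against the pair was 0.57 ± 0.25 and not called (adjusted p = 0.375), against the 4 it was 1.42 ± 0.19 (adjusted p = 2.38e-07). Nr1h2 was called against libraries 1 to 4 (0.97, adjusted p = 0.0415) and not against the pair (0.31, adjusted p = 0.944). Lpl, Mylip, Lipa and Soat1 were called against neither, with changes of 0.28, 0.06, 0.04 and 0.02 against the pair and -0.01, -0.07, 0.26 and 0.27 against the 4. With libraries 5 and 6 alone, the difference between 1 day and 6 h kept its call for Lpl (1.61, adjusted p = 0.0176) and lost it for Abca1 (0.86, adjusted p = 0.0956), where 0.316% of all tested genes passed. The 4 calls between 2 h and 6 h were all lost, where 0.839% of all tested genes passed. These differences kept their signs, with larger standard errors for Abcg1 (1.07 ± 0.32), Plin2 (0.65 ± 0.30), Lipa (0.65 ± 0.27) and Abca1 (-0.40 ± 0.22). Against all SH libraries they were 1.49 ± 0.27, 1.22 ± 0.27, 0.80 ± 0.21 and -0.73 ± 0.19.

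Cell markers also moved at 6 h. At 6 h the microglial markers summed to 33017 to 36662 RPM in IR and 43758 to 47445 RPM in SH libraries, with no overlap, and 6 of the 11 fell. SH libraries 5 and 6 were at 45683 and 47445 RPM, so on this measure they lay with the other SH libraries. Markers of perivascular macrophages, which neighbour vessels, summed to 36.5 to 77.6 RPM in IR and 107 to 172 RPM in SH libraries, and Mrc1, 1 of 3 tested of 6, fell (-0.64 ± 0.10, adjusted p = 1.34e-05). Mrc1 alone had 16.6 to 48.1 RPM in IR and 82.4 to 155 RPM in SH libraries. Pf4 (1.49 ± 0.80, adjusted p = 0.195) and Cbr2 (0.16 ± 0.31, adjusted p = 0.759) were not called. Cd163, Lyve1 and F13a1 were not tested, and the highest IR library was above the highest SH library for each of them. The lower sum was thus that of Mrc1 and not of the list as a whole. The microglial sum was 32734 to 44574 RPM in IR and 36275 to 48295 RPM in SH libraries at 2 h (3 of 11 fell), and 42381 to 50203 RPM in IR and 39164 to 43195 RPM in SH libraries at 1 week (2 rose and 1 fell). No neuronal marker passed the filter; 1 IR library of 1 week reached 365 RPM for Slc17a7, against at most 1.39 RPM in SH libraries of that time, while each of the other neuronal markers was at 2.49 RPM or less in the IR libraries of 1 week. The 3 tested oligodendrocyte markers and the 1 tested endothelial marker were called at no time. The part of these markers in the lipid gene changes was not tested.

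**Figure D4:**
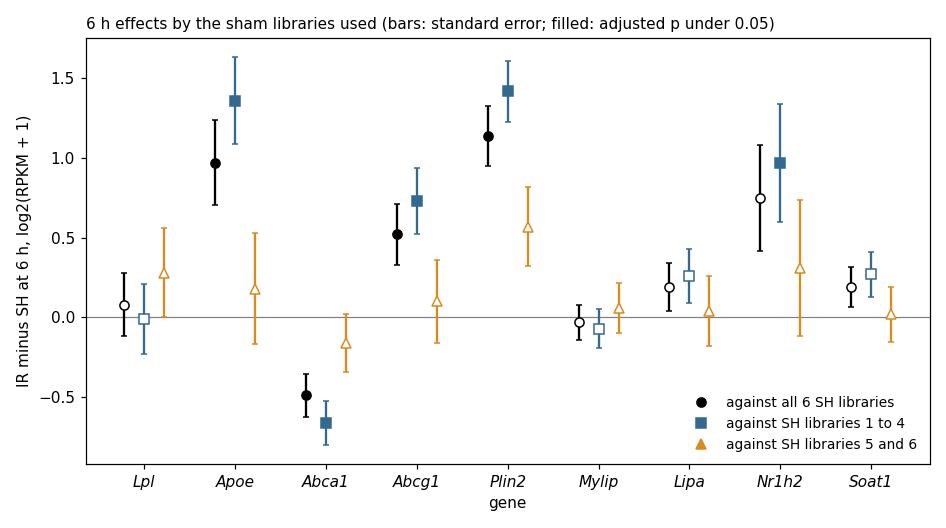
Log2 change at 6 h (IR minus SH, log2(RPKM + 1) scale) of the 9 tested lipid genes against all 6 SH libraries, against SH libraries 1 to 4 and against SH libraries 5 and 6, with the standard error as bars and filled points for adjusted p under 0.05. Apoe stands at 1.36 against libraries 1 to 4 and at 0.18 against libraries 5 and 6, and Plin2 at 1.42 and 0.57.

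A wider list of 74 other lipid genes placed these changes among their pathway; 38 of them passed the filter. At 2 h none rose and 5 fell, where 4.60% of all tested genes rose and 4.02% fell. At 6 h 11 rose and 5 fell, where 12.9% of all genes rose and 8.00% fell. At 1 day 3 rose and 1 fell, where 2.90% of all genes rose and 1.39% fell, and at 1 week 2 rose and 1 fell, where 2.03% of all genes rose and 1.51% fell. The medians were -0.12, 0.28, -0.02 and 0.13. At 6 h the counts were 1 higher (Lrp1) and 1 lower (Abca9) against SH libraries 5 and 6 alone, and 16 higher and 5 lower against SH libraries 1 to 4 alone. At 1 day the median of the wider list, -0.02, lay near that of all genes, 0.00, and that of the 9 members was 0.60. Members and list were both chosen with earlier results of these data known, so this difference between them is no test.

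Of the 9 tested genes listed under lipid droplets, 3 fell at 2 h, where 4.02% of all tested genes fell. That heading was broad and also held Sel1l, Lmf2 and Fabp5, which are not genes of the droplet itself. Pnpla2, the lipase that opens droplet triglyceride, had 2.56 ± 0.732 RPKM in IR and 6.37 ± 1.5 RPKM in SH libraries (log2 change -1.05 ± 0.23, adjusted p = 0.00134), and Mgll, which cleaves monoglycerides, fell by 0.33 on the log2 scale (adjusted p = 0.0346). The third, named here after its value was seen, was Lipe, hormone-sensitive lipase (-0.70 ± 0.23, adjusted p = 0.0489). Mgll was higher at 6 h (0.30 ± 0.10, adjusted p = 0.0288; -0.05 and 0.97 against SH libraries 5 and 6 alone) and lower at 1 day (-0.38 ± 0.10, adjusted p = 0.0178). Sel1l, an endoplasmic reticulum protein needed for lipoprotein lipase to leave that compartment, fell at 6 h (-0.46 ± 0.12, adjusted p = 0.00501; -0.18 and 0.868 against SH libraries 5 and 6 alone).

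Of the 5 tested receptors and uptake genes, Lrp1, a receptor for Apoe-bearing particles, rose at 3 times. It had 24.1 ± 1.42 RPKM in IR and 11.4 ± 2.00 RPKM in SH libraries at 6 h (1.03 ± 0.14, adjusted p = 9.27e-07; 0.79 ± 0.20 and 0.0197 against SH libraries 5 and 6 alone), 19.6 ± 4.99 RPKM in IR and 10.7 ± 1.87 RPKM in SH libraries at 1 day (0.79 ± 0.14, adjusted p = 0.000197), and 16.6 ± 2.67 RPKM in IR and 10.8 ± 1.65 RPKM in SH libraries at 1 week (0.58 ± 0.14, adjusted p = 0.0174). Stab1, a scavenger receptor, rose at 1 week with 39.0 ± 6.64 RPKM in IR and 22.8 ± 4.0 RPKM in SH libraries (0.75 ± 0.15, adjusted p = 0.00177). Sort1, a sorting receptor, had 2.10 ± 0.199 RPKM in IR and 5.71 ± 2.51 RPKM in SH libraries at 6 h (-1.05 ± 0.17, adjusted p = 8.06e-06), a call lost against SH libraries 5 and 6 alone (-0.69, adjusted p = 0.0716). Trem2, another gene of this part of the list, fell at 2 h (-0.52 ± 0.17, adjusted p = 0.0464). It is named here after its value was seen.

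Of the 11 tested LXR partners, cofactors and linked genes, 4 rose and 2 fell at 6 h, where 12.9% of all tested genes rose and 8.00% fell. Abca9, a transporter of the same family as Abca1, was lower at 2 h (-0.55 ± 0.14, adjusted p = 0.00529) and at 6 h (-0.97 ± 0.14, adjusted p = 1.08e-06; -0.78 ± 0.20 and 0.0176 against SH libraries 5 and 6 alone). Scd2, a fatty acid desaturase, rose at 1 day (0.53 ± 0.16, adjusted p = 0.0412). Arl4c, an LXR target in other cells, had 10.6 ± 1.33 RPKM in IR and 15.8 ± 3.08 RPKM in SH libraries at 1 week (-0.52 ± 0.15, adjusted p = 0.0414), and was higher at 6 h (0.53 ± 0.15, adjusted p = 0.00999; 0.46 and 0.475 against SH libraries 5 and 6 alone). The lysosomal egress genes held 3 rises and 1 fall among 11 tested at 6 h, against the same background; Npc2, which hands cholesterol to the lysosomal membrane, had 52.6 ± 2.29 RPKM in IR and 37.7 ± 6.03 RPKM in SH libraries (0.48 ± 0.10, adjusted p = 0.000509; 0.24 and 0.611 against SH libraries 5 and 6 alone). Gla, a lysosomal galactosidase that cleaves glycolipids, rose at 6 h (1.01 ± 0.21, adjusted p = 0.000533; 0.91 and 0.167 against SH libraries 5 and 6 alone) and at 1 day (1.08 ± 0.21, adjusted p = 0.000668). The 3 PPAR receptor genes did not pass the filter, and the 2 tested lipoprotein genes of the list were called at no time.

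The genes most like each member over the 8 group means were found by Pearson correlation of log2(RPKM + 1). These are descriptions over 8 points that share libraries and times. Lpl was most like Spp1, which encodes osteopontin, with r = 0.968. Abcg1 had r = 0.982 with Snrpd2 and, next, r = 0.973 with Lipa. Plin2 was most like Sepn1 (r = 0.991), Apoe most like Rhoc (r = 0.981), Abca1 most like Serp1 (r = 0.978), and Lipa most like Anxa7 (r = 0.988). Mylip was most like Rnf10 (r = 0.942), Soat1 most like Ank (r = 0.989), and Nr1h2 most like Ngdn (r = 0.988). Abcg1 and Lipa were the one pair of members in which a member was among the 2 genes most like another.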

How the data were processed

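Libraries of microglia sorted on Cx3cr1 were made with a QIAseq FX kit for single cell RNA and sequenced in bulk, per the labels' protocols. STAR 2.6.1d for GRCm38 (mm10), featureCounts 1.5.1, bcl2fastq 2.20.0 and FastQC 0.11.8 stand in the submitters' processing notes; annotation and strand setting are not given in the sources used here. The authors deposited RPKM per gene. Each deposited value was a whole number of reads divided by the gene's span with introns and by a total, but for all but 2.05% of the 719081 values above 0 that total belonged to another library. Whole reads were recovered (100% within 0.001 reads, with 95 genes of at most 16 reads ambiguous) and RPKM was recomputed with each library's own total. The deposited RPKM was 0.436 (5th percentile) to 3.11 (95th percentile) times the recomputed one. The recovery and the fit were tested on simulated data.

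Group means of log2(RPKM + 1), pseudocount 1, were fitted over all 48 libraries by limma 3.58.1 under R 4.3.3 (trend and robust eBayes, 40 residual degrees of freedom). The 10132 genes that reached 1 RPKM in 6 or more libraries were kept, and two-sided p values were adjusted by Benjamini-Hochberg at 0.05 over all of them. Differences of the effect between adjacent times came from the same fit. With the unit RPKM a count model was not the main test, and voom on the recovered reads is an alternative. In no library pair of a group were the reads alike within sampling noise (120 pairs, lowest chi-square per degree of freedom 3.12). The same replicate number marks different animals; it is not a pairing. The labels mention no molecular identifiers, so reads are not independent molecules.

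The members and lists were chosen with earlier results of these data known. Named genes are the 10 members, of the wider lipid list up to 3 rises and 3 falls per time with the smallest adjusted p, and the 2 tested genes most like each member. Lipe and Trem2 are named in addition, after their values were seen. Some items that the rule names are not reported here. Marker lists cover microglia, astrocytes, neurons, oligodendrocytes, endothelial cells, perivascular macrophages, and monocytes with neutrophils. Alternatives changed the pseudocount, filter, scaling, model, libraries and GC or span trend. Overlaps of the members with other genes involve at most 77 reads in all libraries for the other gene.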

Additional observations from a re-analysis of the deposited data

Results flagged for a closer look

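A library stood far from the other 5 of its group in 7 of 80 groups of 6 looked at, where chance gives about 1 in 20, or 4. Lpl was at 8.83 RPKM in SH 2 h library 3, Plin2 at 2.72 RPKM in SH 2 h library 2, and Soat1 at 2.52 RPKM in IR 2 h library 1. Abca1 was at 3.53 RPKM in SH 1 day library 6, the library with the fewest reads (175382), and the rise of Abca1 at 1 day was called without any 1 library. Nr1h2 was at 4.66 RPKM in IR 2 h library 2 (395761 reads in the library) and at 12.8 RPKM in IR 6 h library 4, and Nr1h3 at 0.195 RPKM in SH 6 h library 5.

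The difference between IR and SH libraries changed between adjacent times in 11 of 27 tests of members. From 2 h to 6 h it moved by 1.49 for Abcg1, 1.22 for Plin2, 0.80 for Lipa and -0.73 for Abca1, where 9.28% of all tested genes passed. From 6 h to 1 day it moved by 1.81 for Lpl and 1.19 for Abca1, where 4.38% passed. From 1 day to 1 week it moved by -2.14 for Lpl, -1.59 for Abcg1, -1.14 for Lipa, -1.05 for Abca1 and -0.52 for Mylip, where 5.43% passed. With SH 6 h libraries 5 and 6 alone, the calls from 2 h to 6 h and that of Abca1 from 6 h to 1 day were lost.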

How the results depend on the processing

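With the values exactly as deposited, 53 genes were called at 2 h (52 higher, 1 lower), 63 at 6 h (56 and 7), 39 at 1 day (39 and 0) and 10 at 1 week (10 and 0), in place of 873, 2120, 435 and 359. The members called were then 0, 0, 1 (Lpl) and 0 at these times, and 0 in all 3 differences between adjacent times, in place of 4, 2 and 5; these values carry the totals of other libraries. In fits of 1 time alone, 1 member and 513 genes were called at 2 h, and 3 members and 259 genes (204 higher, 55 lower) at 1 day. Against SH 6 h libraries 5 and 6 alone, 0 members and 212 genes were called at 6 h, 0 members in the difference from 2 h and 1 in the difference to 1 day. Without the GC and span trend 2 members were called at 6 h, Plin2 (0.99, adjusted p = 0.000104) and Soat1 (0.37, adjusted p = 0.0416), and all genes split into 754 higher and 720 lower. Without a filter 235 genes were called at 1 week, and with voom 709; with voom the 1 day split was 328 higher and 242 lower, and the median of all genes was -0.129 at 1 day and 0.169 at 6 h.

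Leaving out single libraries, which was chosen after seeing the data, gave 1 to 3 members called at 1 week, and small uncalled effects turned sign: Plin2 at 2 h ran from -0.17 to 0.09, Mylip at 6 h from -0.06 to 0.01 and at 1 day from -0.04 to 0.04, and Soat1 at 1 day from -0.01 to 0.15. Under the other settings, 521 member effects kept direction and side of the threshold, 48 lost the call, 6 gained it and 19 turned sign, none of the last called in either fit. These were, at 6 h, Lpl (-0.10 as deposited, -0.01 against SH 1 to 4), Mylip (0.01 without shallow libraries, 0.06 against SH 5 and 6) and Lipa (-0.05 as deposited), and Mylip at 1 day (-0.01 with voom and without shallow libraries). In the difference of 6 h and 2 h they were Lpl (0.03) and Apoe (-0.13) against SH 5 and 6, and Mylip as deposited (-0.07). In that of 1 day and 6 h they were Apoe (0.02 as deposited, 0.23 against SH 5 and 6), Plin2 (0.03 as deposited, 0.04 without the GC and span trend, 0.47 against SH 5 and 6), Mylip (-0.02 without shallow libraries, -0.06 against SH 5 and 6) and Soat1 (0.17 as deposited, 0.06 against SH 5 and 6). The causes were not tested.

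With the replicate number as a block, Lipa at 1 week was no longer called (-0.54, adjusted p = 0.0909) and Plin2 was called in the difference of 1 week and 1 day (-0.73, adjusted p = 0.0299); no other member's call changed, and 760, 1993, 372 and 251 genes were called at the 4 times. Same-numbered IR and SH libraries correlated by -0.107 to 0.137, and 5 of 24 IR libraries were most like the SH library of their own number, so the number is only shared. Nr1h3, Nr1h2 and Plin2 had the fewest reads of the members.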
